A study of Mus musculus with 4 samples.

Results

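The comparison set 1 brain section from a mouse given ethanol against 1 section from a mouse given water vehicle, both at 18 to 20 months of age. Members were the array spots with at least 500 unique molecular identifiers (UMIs, each standing for 1 captured RNA molecule) that carried the barcode suffix of either library. They were 2703 spots of the vehicle section and 2642 spots of the ethanol section, 5345 of the 10942 spots that passed this minimum and of 11064 spots in all. The study was made with Visium, which captures polyadenylated RNA from a tissue section on a grid of barcoded spots, each of which collects RNA from several cells or parts of cells. All mice were female C57BL/6 from an aged-rodent colony, housed 2 to 3 to a cage and allocated at random. The ethanol mouse received 3 g/kg ethanol by gavage every other day, 10 exposures in 18 days, and the vehicle mouse received water on the same schedule. Tissue was taken 18 h after the last gavage, the left hemisphere was frozen after removal of the meninges, and a 10 µm coronal section was cut at bregma -2.0 to -2.2 mm. A second pair of libraries came from mice of 3 to 4 months under the same gavages and is used here only where the younger values are set beside the older ones. There was 1 library per group and so no replicate. Animal, section, plane of cut and library cannot be told apart from the gavage, no p-value is given, and every interval below covers counting error only.

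The labels name the tissue as hippocampal, but the sections also held neocortex, thalamus, hypothalamus, piriform cortex and white matter. Ethanol is oxidised in the brain mainly by catalase and cytochrome enzymes, and the acetaldehyde it yields is cleared by aldehyde dehydrogenases. In the ageing brain, microglia (the resident phagocytes) and astrocytes carry more complement and major histocompatibility transcripts, white matter collects phagocytic microglia, and a few lymphocytes lodge at the borders of the tissue. Small arteries are wrapped in contractile smooth muscle and lined by endothelium, in which the flow-responsive transcription factor Klf2 keeps the vessel wall quiescent.

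The libraries were of similar depth, with 45995677 UMIs in the vehicle section and 48131900 in the ethanol section, and a median of 15660 and 16150.5 UMIs per spot. Mitochondrially encoded transcripts took 13.6% of UMIs in the vehicle library and 16.5% in the ethanol library. The ribosomal carry-over transcripts (Gm42418, AY036118 and Lars2, which share sequence with ribosomal RNA) took 0.212% and 0.564%. Of the members, 1766 array positions occurred in both libraries, as the same barcoded grid is printed on every slide. Clustering of the spots of all 4 libraries gave 25 tissue strata, of which 20 could be named from marker genes and 21 held at least 15 spots in each of the older libraries. The 4 strata left out show how the planes differed. A Prkcd-Tnnt1 relay thalamus stratum held 2 vehicle and 86 ethanol spots, a Pvalb-Six3 reticular thalamus stratum 5 and 33, a habenula stratum 0 and 20, and an unnamed Ctxn3-Cbln1 stratum 42 and 2. All gene values below compare spots within the 21 shared strata (2654 vehicle and 2501 ethanol spots). Each stratum's UMIs were scaled to a total of 1000000 (giving counts per this total, CPM) and the strata were then averaged with the same weights in both libraries. A gene was called different when its level differed at least 2-fold and the library with more held at least 50 UMIs.

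Over the matched section, 44 of 7385 genes were called higher in the ethanol library (0.596%) and 40 lower (0.542%). The highest ratios among these 7385 genes were those of Igkc, the hypothalamic peptide genes Qrfp and Avp, and Cst7. The genes called higher also included C4b, Ighm and the carry-over transcripts. Genes used to form the strata were not ranked. The lowest ratios included S100a8 and Defb11, and the genes called lower also included Klf2, Acta2, Myl9 and the leptomeningeal gene Myoc. The median log2 ratio of all genes was -0.07. Without matching of strata the same libraries gave 44 genes higher (0.594%) and 64 lower (0.864%) of 7410, of which 30 and 27 were also called after matching.

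**Figure D1:**
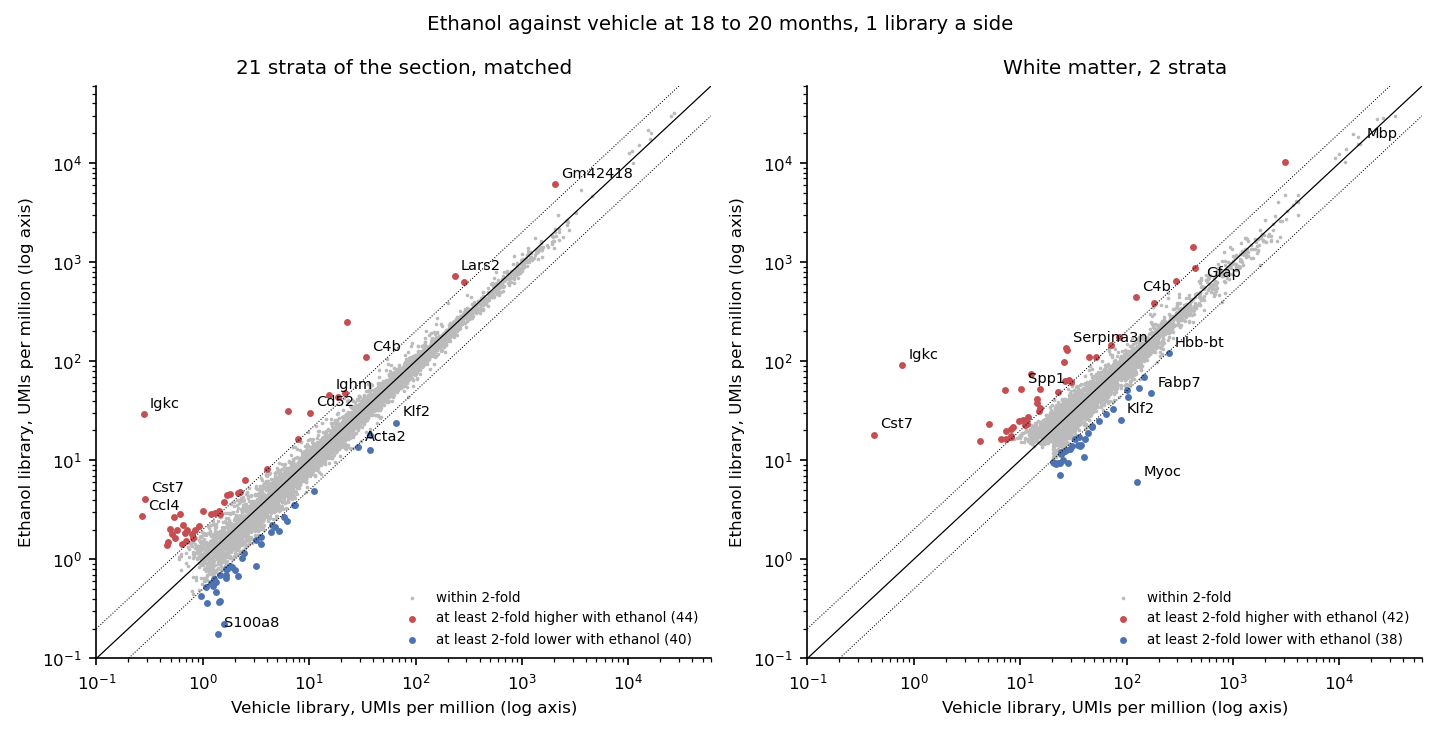
Level of each gene in the vehicle library (x, CPM, log axis) against the ethanol library (y, CPM, log axis) at 18 to 20 months, for the strata-matched section and for white matter. Dotted lines mark 2-fold differences; of the genes coloured as called, 44 lie above and 40 below in the section, and 42 above and 38 below in white matter. Qrfp, with 1 and 50 UMIs over the section (0.0137 and 1.25 CPM), lies left of the axis.

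Igkc had the highest ratio of the 7385 genes compared over the section. This immunoglobulin kappa light chain gene had 12 UMIs in the vehicle library and 875 in the ethanol library, or 0.279 and 29.5 CPM, a ratio of 106 (95% counting interval 53 to 210). Ighm, the mu heavy chain of IgM, stood at 15.4 and 45.6 CPM (709 and 1927 UMIs), 2.97-fold higher (2.7 to 3.28). Jchain, which joins IgM and IgA into polymers, had 25 and 64 UMIs and was 3.47-fold higher (2.06 to 5.83). T cell genes were mixed in direction. The T cell receptor gene Trac had 112 and 62 UMIs and a level 2.03-fold lower (1.44 to 2.87), although it was under 2-fold in 7 alternative settings. The receptor gene Trbc2 had a ratio of 0.717. The T cell genes Cd8a, Cd3d, Cd3g and Cd3e had ratios of 2.63, 2.41, 2.22 and 2.04, on too few UMIs for a call. Cd4 had a ratio of 1.7. Of 8 measured members of the lymphocyte and immunoglobulin list, 3 were called higher and 1 lower, with a median log2 ratio of 0.50. The plasma cell transcription factor Xbp1 stood at 65.8 and 77.7 CPM, 1.18-fold, and the B cell receptor component Cd79a had only 22 and 11 UMIs.

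Igkc UMIs lay in few spots. In the ethanol library 283 of 2501 spots held at least 1 Igkc UMI (11.3%), against 11 of 2654 in the vehicle library (0.414%). After spots were thinned to 5000 UMIs, which left out 95 ethanol and 229 vehicle spots with fewer, the shares were 4.74% and 0.124%, at median depths before thinning of 16140 and 15803 UMIs per spot. The 10 richest spots held 39.5% of all Igkc UMIs of the ethanol library, and the richest single spot held 75. Ighm was more evenly spread, being seen in 36.5% of ethanol spots and 16.6% of vehicle spots, or 16.3% and 7.92% after thinning. By stratum, most Igkc UMIs lay in the meninges and large vessels, white matter and hypothalamus. The stratum of meninges and large vessels (leading genes Ptgds and Mgp) had 0 Igkc UMIs in 62 vehicle spots, which allows a share of up to 4.84%, and 300 UMIs in 45 ethanol spots, at least 133-fold more. There 20 of the 45 ethanol spots held Igkc (44.4%), and 10 of them held 93.3% of its UMIs. The hypothalamus had 0 and 169 Igkc UMIs, at least 44.5-fold more, seen in 0 of 350 vehicle spots (which allows up to 0.857%) and 96 of 385 ethanol spots (24.9%). White matter had 2 and 265 Igkc UMIs, in 2 of 392 and 53 of 376 spots. The choroid plexus stratum had 4 and 5.

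Ighm was called higher in 10 of the 12 strata where it could be measured. In the meninges and large vessel stratum it had 6 and 151 UMIs, a ratio of 33.5 (15 to 92.6), and in the dentate granule layer 7 and 167, a ratio of 11.5 (5.48 to 29.2), among 36 genes higher (1.32%) and 3 lower (0.11%) of 2724. The dentate spots were deeper in the ethanol library, with a median of 37072 UMIs against 21080. Cortical layer 6 was different. It had the highest Ighm level of any measured stratum in the vehicle library, 88.1 CPM, and 97.5 CPM in the ethanol library, a ratio of 1.11 (0.962 to 1.27). The T cell receptor gene Trbc2 is among the leading genes of that same layer 6 stratum and stood at 16.6 and 11.9 CPM over the section. In layer 6b Ighm stood at 36.1 and 51.5 CPM, a ratio of 1.43 (0.942 to 2.19). The planes, the few spots that hold the UMIs and the amount of border tissue differed between the libraries: the 8 meningeal marker genes, all detected in both, summed to 134 CPM in the vehicle section and 89.2 CPM in the ethanol section. Their part in the immunoglobulin result was not tested.

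**Figure D2:**
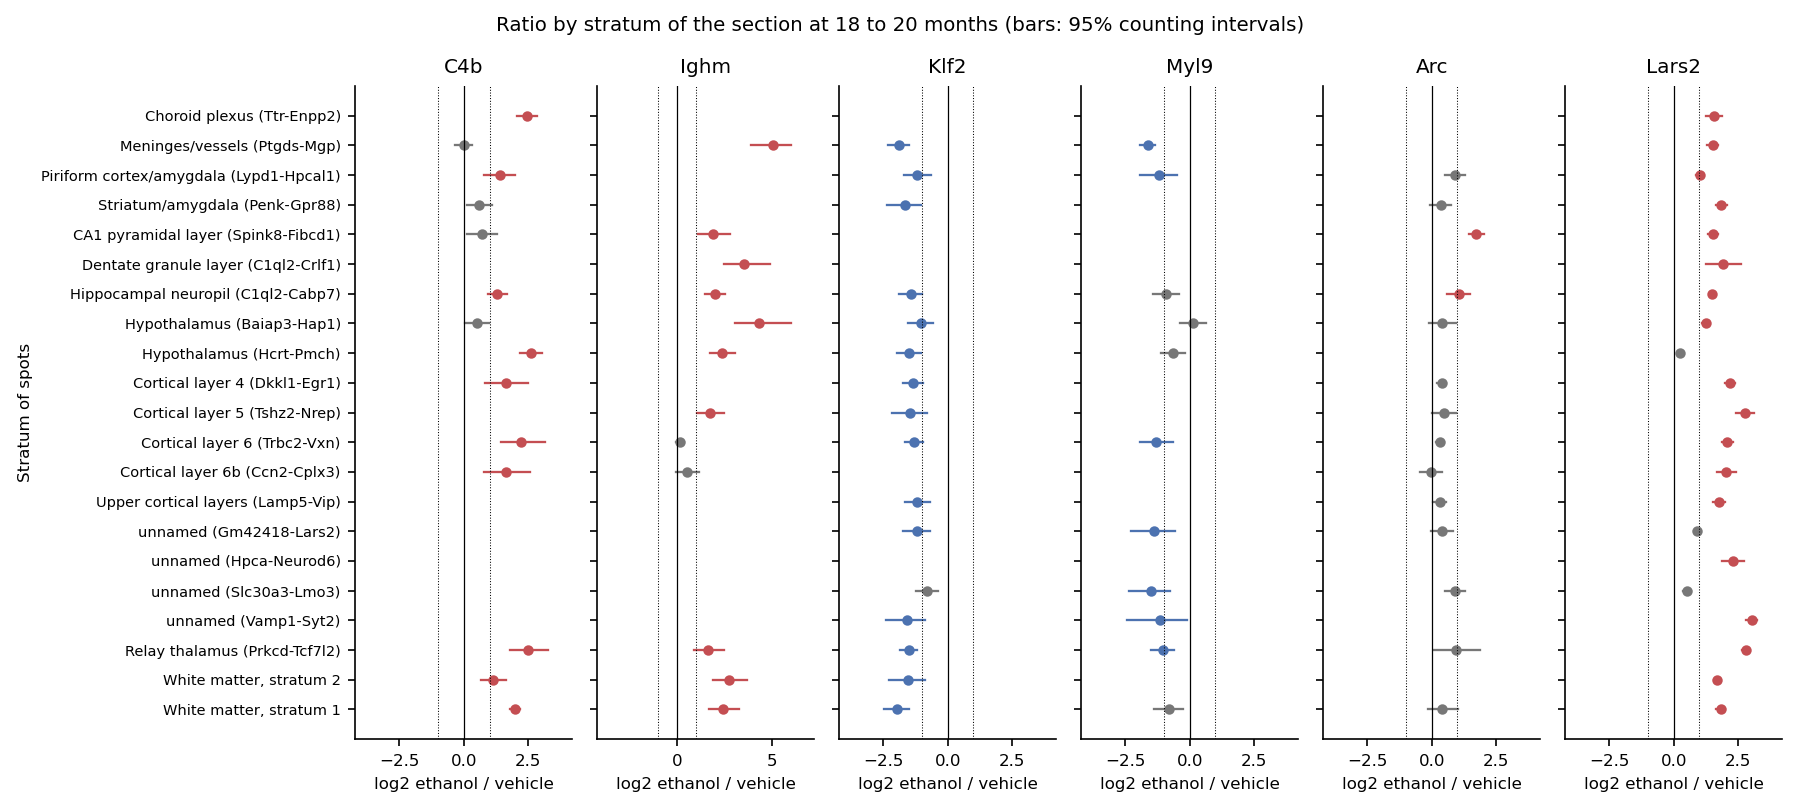
Log2 ratio of ethanol over vehicle library (x) for C4b, Ighm, Klf2, Myl9, Arc and Lars2 in each tissue stratum where the gene was measured (y), with 95% counting intervals as bars and 2-fold differences as dotted lines. Klf2 lies below the lower line in 15 of 16 strata and Lars2 above the upper line in 18 of 21, while Arc passes it in 2 of 14.

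Of the complement genes C4b and C3 were called higher over the section and C4a lower. C4b, the complement component that tags surfaces for phagocytosis and is made in brain mainly by astrocytes and oligodendrocytes, stood at 34.5 and 110 CPM over the section (1080 and 3457 UMIs), 3.19-fold higher (2.95 to 3.45). C3, the central complement component, had 36 and 100 UMIs and was 3.04-fold higher (1.95 to 4.74). C4a, a near copy of C4b with which reads may be shared, had 87 and 39 UMIs and was 2.4-fold lower (1.61 to 3.57), so the split between the C4 copies is uncertain; its log2 ratio was -0.90 with core spots only. C1qa, a chain of the complement initiator C1q made by microglia, stood at 93.2 and 153 CPM, 1.64-fold, which did not pass. Of 12 measured complement genes 2 were called higher and 1 lower, with a median log2 ratio of 0.27.

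Among the 19 measured genes of the disease-associated microglia list, 6 were called higher, none lower, and the median log2 ratio was 0.45. The cystatin Cst7 had 13 and 129 UMIs, a ratio of 14.4 (7.5 to 27.6), and the integrin Itgax 16 and 73, a ratio of 5 (2.63 to 9.5). Cd52, a surface glycoprotein of leukocytes and microglia, stood at 10.3 and 30.2 CPM, 2.94-fold higher (2.56 to 3.38), and the lysozyme Lyz2 at 18.5 and 43.4 CPM, 2.34-fold higher (2.11 to 2.59). Lyz2, Gpnmb (2.11-fold) and Lgals3 (2.53-fold) were each under 2-fold when all strata had equal weight. The chemokines Ccl3 and Ccl4, which recruit leukocytes, had 21 and 70, and 13 and 83 UMIs, and were the only 2 of 13 measured chemokines and cytokines called, Ccl3 at a log2 ratio of 0.91 with core spots only. No gene of the general microglia list passed over the section (0 of 18), though 15 of 18 had ratios above 1 and the median log2 ratio was 0.26. All 11 measured major histocompatibility class I genes had ratios above 1 as well, with a median of 0.31 and none called. Of 23 interferon response genes only the ubiquitin-like modifier Isg15 was called, with 46 and 124 UMIs. The neutrophil alarmin S100a8 was lower, with 54 and 7 UMIs in 30 and 7 spots, a ratio of 7.86 (3.3 to 18.7).

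Astrocyte genes differed unevenly. Serpina3n, a secreted protease inhibitor induced in reactive astrocytes, stood at 21.5 and 47.9 CPM over the section, 2.22-fold higher (2.03 to 2.44), and was under 2-fold with equal weight for the strata. The tissue inhibitor of metalloproteinases Timp1 had 28 and 73 UMIs and was 3.41-fold higher (2.07 to 5.63). Gfap, the intermediate filament used as the standard astrocyte marker, stood at 122 and 158 CPM, 1.29-fold. These 2 called genes were the only ones of 16 measured on the reactive astrocyte list, whose median log2 ratio was 0.31. None of 16 homeostatic astrocyte genes passed, with a median of -0.10. In a spot assay a higher level may be more cells of a type or more RNA per cell, and the 2 cannot be told apart.

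Klf2 was the most widespread difference toward lower levels. It stood at 65.6 CPM in the vehicle section (2655 UMIs) and 24 CPM in the ethanol section (1027 UMIs), 2.73-fold lower (2.51 to 2.98). The share of spots with a Klf2 UMI was 48.9% and 29.4%, or 24.4% and 10.9% after thinning to 5000 UMIs. Klf2 was called lower in 15 of the 16 strata where it was measured, with log2 ratios from -1.96 in white matter to -0.79 in the remaining stratum, an unnamed Slc30a3-Lmo3 group of spots at 39.9 and 23 CPM. In the 3 to 4 month pair the section levels were 39.3 and 30.9 CPM, a log2 ratio of -0.35, which was not called. The promoter of Klf2 is shown because no other gene was called lower in so many strata. It covers chr8:72318812-72319061 of GRCm38.p6 on the plus strand, the 250 bases before the RefSeq start, with capitals marking the match to the MEF2 motif that begins 118 bases before that start.
Klf2: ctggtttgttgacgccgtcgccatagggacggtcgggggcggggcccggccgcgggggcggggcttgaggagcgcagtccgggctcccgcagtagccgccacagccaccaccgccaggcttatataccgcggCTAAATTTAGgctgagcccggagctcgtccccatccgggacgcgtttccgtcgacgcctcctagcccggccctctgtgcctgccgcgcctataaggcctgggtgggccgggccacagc
The MEF2 motif, searched on both strands, occurs in 0.592% of 27025 mouse promoters of this length. Among genes called lower in white matter 1 of 31 with a promoter entry held it, Klf2 itself, against 0.328% of the 3052 measured there that had one. The match is a description of the letters and not evidence of binding.

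The smooth muscle genes Acta2, Myl9 and Myh11 were called lower over the section. Acta2, smooth muscle actin, stood at 29 and 13.6 CPM (1245 and 536 UMIs), 2.13-fold lower (1.91 to 2.38). Myl9, a regulatory myosin light chain, stood at 37.7 and 18 CPM, 2.09-fold lower (1.89 to 2.31), and Myh11, the smooth muscle myosin heavy chain, at 7.24 and 3.56 CPM, 2.03-fold lower (1.62 to 2.55). The vessel wall elastin gene Eln had 192 and 81 UMIs and was 2.35-fold lower (1.78 to 3.1). Of 12 measured pericyte and smooth muscle genes 3 were called lower and 1 had a ratio above 1, with a median log2 ratio of -0.50 and a summed level of 288 and 197 CPM. All 3 calls were under 2-fold when only core spots of each stratum were kept, Acta2 at a log2 ratio of -0.91, Myl9 at -0.90 and Myh11 at -0.87. The smooth muscle gene Tagln (9.41 and 6 CPM) and the pericyte genes Vtn (95.1 and 65.3), Rgs5 (58.9 and 49.9) and Pdgfrb (11.8 and 8.54) did not pass. Endothelial genes differed less over the section. None of 19 was called, 4 had ratios above 1 and the median was -0.20. The barrier lipid transporter Mfsd2a stood at 30.5 and 15.8 CPM, the glucose transporter Slc2a1 at 151 and 94.1 CPM, and the tight junction gene Cldn5 at 42.9 and 43.5 CPM. Mfsd2a was called lower in white matter and the relay thalamus. Its log2 ratios over the settings were -1.48 to -1.31 and -1.23 to -1.11. The clotting factor gene Vwf was called higher in the relay thalamus but was under 2-fold in 2 alternative settings. Acta2 at 3 to 4 months was 17.6 CPM under vehicle and 19.1 CPM under ethanol, and Myl9 was 24 and 22.6 CPM.

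The meninges and large vessel stratum, with 62 vehicle and 45 ethanol spots, held wider vascular differences than the section, and its genes were chosen after their values were seen. Of 1686 genes 23 were higher (1.36%) and 57 lower (3.38%). Klf2 stood at 355 and 95.7 CPM there, 3.71-fold lower (2.84 to 4.93), Acta2 at 642 and 224 CPM, 2.87-fold lower (2.4 to 3.45), and Myl9 at 526 and 171 CPM, 3.08-fold lower (2.51 to 3.81). Klf2 was present in 83.9% of vehicle and 55.6% of ethanol spots, or 68.9% and 32.6% after thinning, at median depths of 13619 and 13175 UMIs. Pericyte and smooth muscle genes were called lower in 5 of 7, endothelial genes in 3 of 13 and immediate early genes in 4 of 8, with median log2 ratios of -1.25, -0.76 and -0.73 against -0.12 for all genes. Among the endothelial genes Slc2a1 (657 and 236 CPM), Pecam1 (74.2 and 32.4) and the growth factor receptor Flt1 (136 and 67.7) were lower, while Cldn5 (154 and 131) and the clotting factor gene Vwf (216 and 141) did not pass. The transporter Slc47a1, which over the section had 26 and 91 UMIs, had 5 and 65 in this stratum, a ratio of 17.3 (7.04 to 55). C4b did not differ there, at 205 CPM in both libraries and a ratio of 0.999 (0.796 to 1.25). The 8 meningeal markers, all detected in both libraries, summed to 2752 and 1649 CPM in this stratum, and the white matter markers to 2000 and 1212 CPM. The part of these marker differences in the vascular differences was not tested.

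The choroid plexus stratum (leading genes Ttr and Enpp2, 47 vehicle and 26 ethanol spots), the epithelium that secretes cerebrospinal fluid, was likewise chosen after its values were seen. Of 1618 genes 35 were called higher in the ethanol library (2.16%) and 25 lower (1.55%), and the median log2 ratio was -0.03. C4b stood at 69.3 and 377 CPM (71 and 223 UMIs), 5.44-fold higher (4.15 to 7.21), the C1q chain C1qc at 62.4 and 216 CPM, 3.47-fold higher, and C1qa at 87.8 and 213 CPM, 2.43-fold higher. Microglia genes were called higher in 4 of 5 measured (median 1.12), complement genes in 3 of 5 (1.28) and reactive astrocyte genes in 2 of 5 (0.98), among them Serpina3n with 12 and 71 UMIs and Gfap at 201 and 455 CPM. Aldh1a1, an aldehyde dehydrogenase, stood at 25.4 and 112 CPM in this stratum, a ratio of 4.4 (2.76 to 7.22), whereas over the section it was not called. All 8 choroid plexus markers were detected in both libraries and summed to 202588 and 130926 CPM, and the 11 white matter markers to 2289 and 3530 CPM. Markers of other neighbouring tissue differed in either direction, those of the neuropil summing to 250 and 194 CPM and those of hypothalamus to 240 and 335 CPM. The part of these differences in the glial values was not tested. Klf2 had 39 and 21 UMIs in this stratum, too few for a call.

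**Figure D3:**
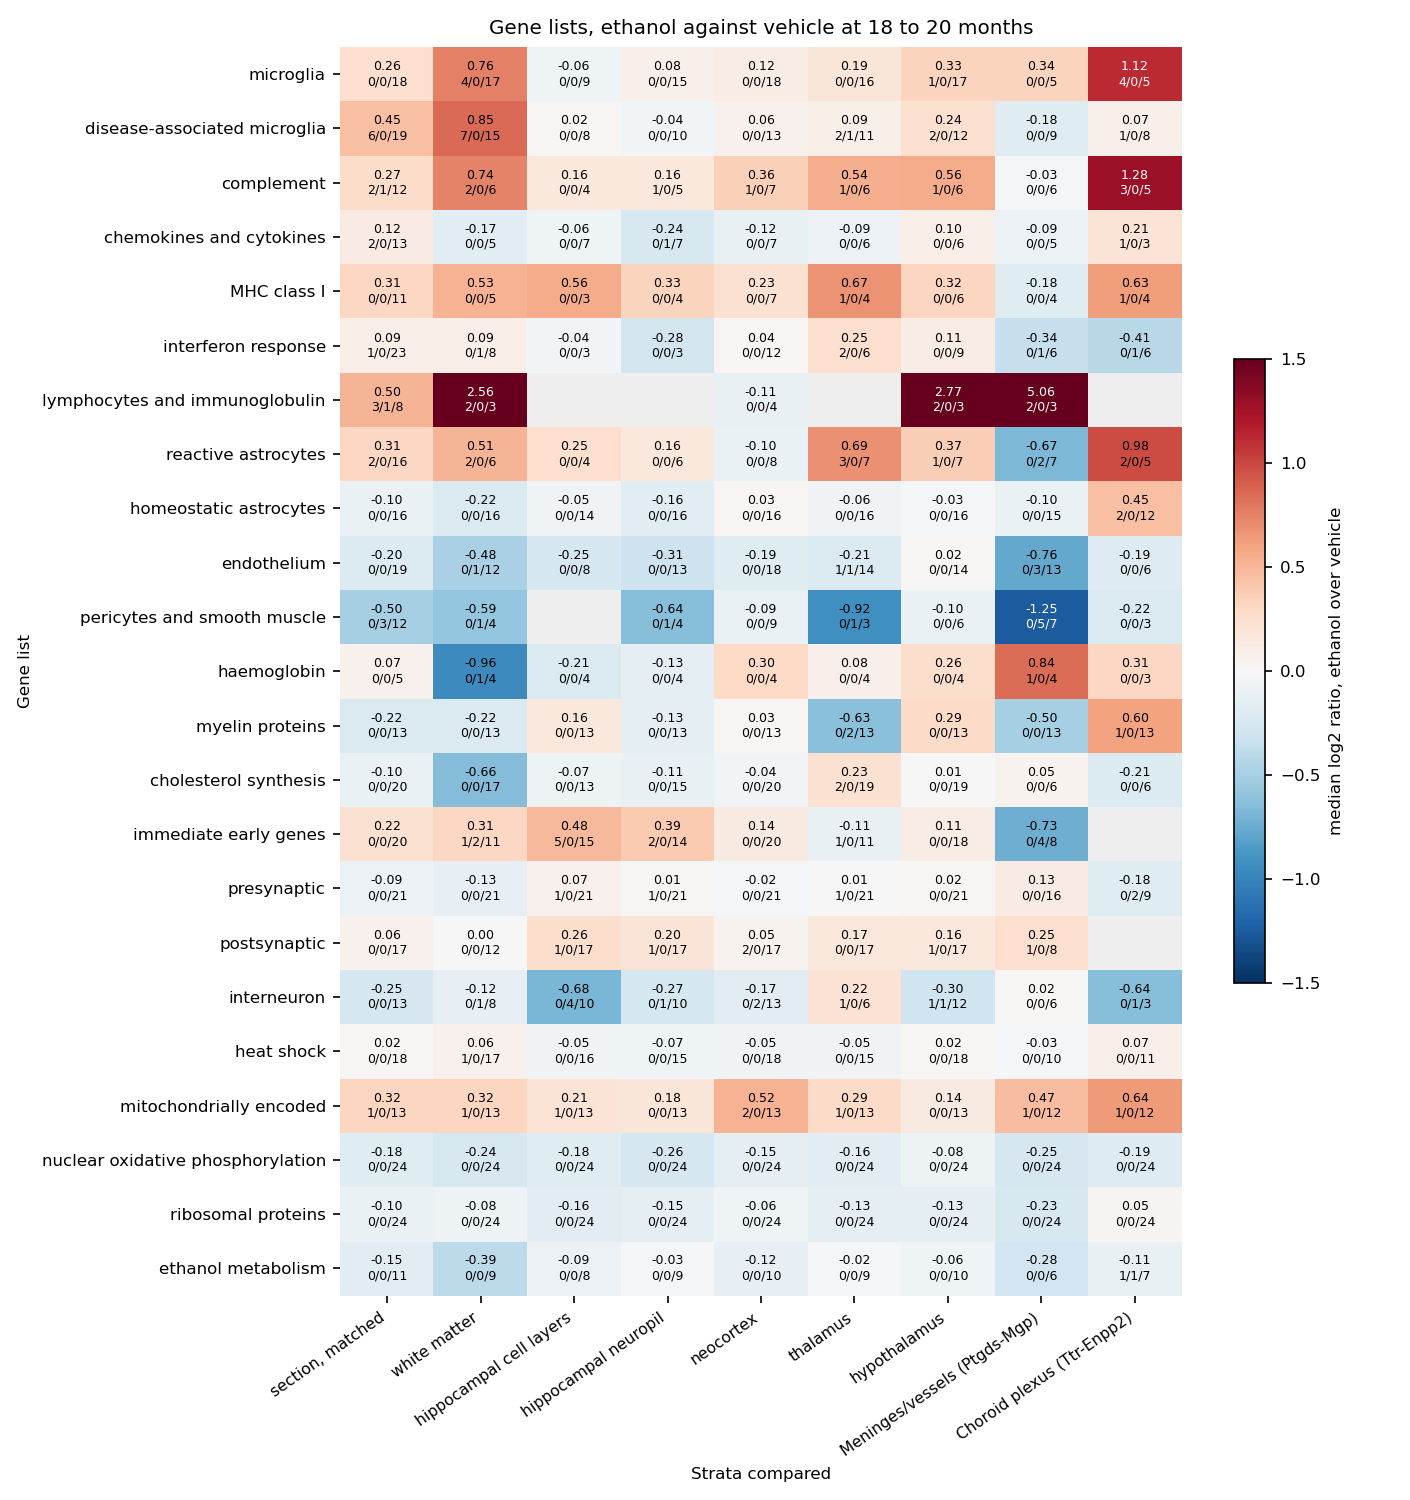
Median log2 ratio (colour and upper figure in each cell) of the measured genes of each fixed list (y) in each group of strata (x), with the numbers called higher, called lower and measured below it; grey cells had under 3 measured genes. The microglia and complement lists have their highest medians in the choroid plexus stratum (1.12 and 1.28) and in white matter (0.76 and 0.74), and the interneuron list its lowest in the hippocampal cell layers (-0.68).

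In white matter 42 of 3837 genes were called higher (1.09%) and 38 lower (0.99%), and with median-of-ratios scaling the split was 52 and 28. The matched white matter spots numbered 392 in the vehicle and 376 in the ethanol library. C4b stood at 123 and 444 CPM and was seen in 35.5% of vehicle and 76.1% of ethanol spots, or 38.0% and 75.3% after thinning. Lyz2 was seen in 14.0% and 43.6% of spots (11.8% and 36.8% thinned), and Trem2, the microglial lipid receptor, in 19.6% and 48.9% (18.1% and 44.6% thinned). White matter spots were deeper in the ethanol library, with a median of 7617.5 UMIs against 5671. The lysosomal glycoprotein Cd68 stood at 15.4 and 52.3 CPM, 3.4-fold higher, and the fractalkine receptor Cx3cr1, a gene of resting microglia, at 22.7 and 48.6 CPM, 2.14-fold higher (1.57 to 2.92). Gpr34, another gene of resting microglia, stood at 14.3 and 38.1 CPM and was called higher, while P2ry12 (35.8 and 42.3 CPM), Csf1r (116 and 131 CPM) and Tmem119 (45.7 and 35.5 CPM) did not pass. Microglial list genes were called higher in 4 of 17 (Cx3cr1, Trem2, Gpr34 and Aif1, the last under 2-fold in 5 alternative settings) with a median log2 ratio of 0.76, and disease-associated list genes in 7 of 15 with a median of 0.85, against -0.09 for all genes. All 11 white matter markers were detected in both libraries and summed to 7333 and 6143 CPM.

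The Trem2 promoter is shown as an example of the phagocyte genes called higher in white matter. It covers chr17:48346151-48346400 of GRCm38.p6 on the plus strand, and the capitals mark a PU.1 core (GAGGAAG, here on the reverse strand) that begins 41 bases before the RefSeq start.
Trem2: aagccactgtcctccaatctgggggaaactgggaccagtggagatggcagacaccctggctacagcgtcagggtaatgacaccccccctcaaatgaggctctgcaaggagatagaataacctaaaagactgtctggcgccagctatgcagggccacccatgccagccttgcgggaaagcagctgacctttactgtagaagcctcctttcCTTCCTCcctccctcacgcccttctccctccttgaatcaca
PU.1 is the lineage factor of myeloid cells. On both strands the GAGGAAG core, which does not overlap the MEF2 motif, was found in 12.0% of all 27025 promoters and 12.4% of the 3052 promoters of genes measured in white matter. Of 30 genes called higher with a promoter entry 6 held it (20.0%: Arhgap32, Fcgr3, Pycard, Spp1, Trem2 and Vim), and of 31 called lower 2 did (6.45%: Fkbp5 and Polr3e). These shares were not tested.

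Genes called lower in white matter included markers of several cell types. Myoc, which marks leptomeningeal and glia limitans cells, stood at 126 and 6.07 CPM (303 and 23 UMIs), 20.8-fold lower (13.6 to 31.7), and 58.4% of its vehicle UMIs lay in 10 spots. Fabp7, a brain lipid-binding protein of astrocytes and radial glia, stood at 170 and 48 CPM, 3.55-fold lower (2.9 to 4.33). Slc7a10, an astrocytic serine transporter, stood at 40.1 and 10.7 CPM, and Gpr17, which marks committed oligodendrocyte precursors, at 55 and 24.7 CPM, 2.23-fold lower (1.67 to 2.97). Of 16 measured precursor and differentiation genes 2 were called lower (C1ql1 and Gpr17) with a median of -0.22, the same median as the 13 myelin genes, none of which was called. Among stress-related genes the inducible chaperone Hspa1b was higher, with 12 and 81 UMIs and a ratio of 4.54 (2.47 to 8.35). The phosphatase gene Dusp1 was lower, at 47 and 22.1 CPM. Fkbp5, a glucocorticoid-induced chaperone of the glucocorticoid receptor, stood at 24.3 and 12.1 CPM, 2.01-fold lower (1.32 to 3.04), and was under 2-fold in 6 alternative settings. Meningeal markers, 8 of 8 detected in both, summed to 129 and 77.7 CPM in these strata, and their part in the Myoc difference was not tested.

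Cholesterol synthesis genes lay below 1 together in white matter. None of 17 measured genes was called, but all 17 had ratios below 1, the median log2 ratio was -0.66 and their sum was 1175 and 771 CPM. Hmgcs1, which makes the precursor HMG-CoA, stood at 194 and 98.1 CPM, 1.98-fold lower. Fdft1, squalene synthase, stood at 102 and 69.8 CPM. The direction was not shared by the relay thalamus, where 17 of 19 measured genes of the list had ratios above 1, the median was 0.23 and Hsd17b7 and Nsdhl were called higher. The median over the section was -0.10, close to that of all genes.

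**Figure D4:**
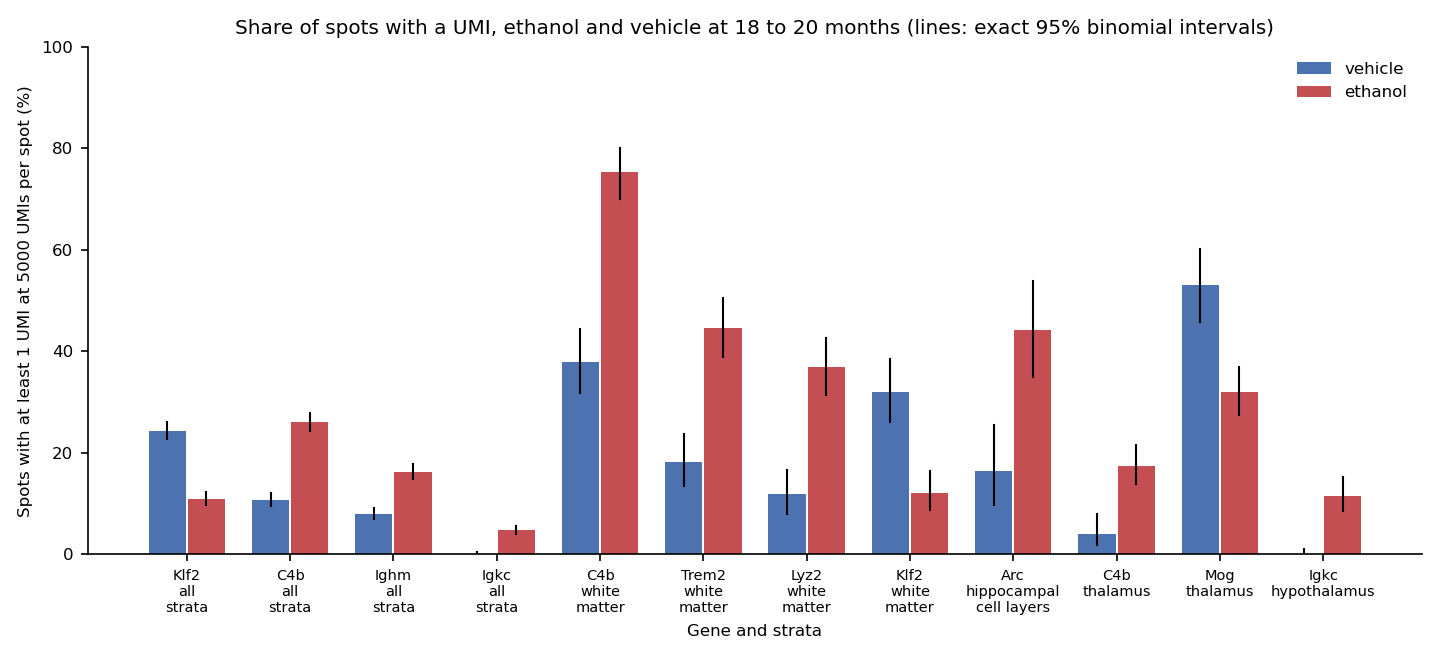
Share of spots with at least 1 UMI of each gene after thinning to 5000 UMIs, with shallower spots left out (y, percent), in the vehicle and ethanol libraries at 18 to 20 months, for all compared strata and for single groups of strata; bars are exact 95% binomial intervals over spots and cover counting error only. C4b was seen in 10.7% and 26.1% of spots over all compared strata, and Klf2 in 24.4% and 10.9%.

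In the hippocampal cell layers (CA1 pyramidal and dentate granule strata, 97 vehicle and 113 ethanol spots) 24 of 4222 genes were called higher (0.568%) and 10 lower (0.237%). Those higher included 5 immediate early genes, a class that neurons transcribe within minutes of strong input, and those lower included 4 interneuron genes. Arc, which regulates AMPA receptor endocytosis, stood at 47.4 and 159 CPM (119 and 462 UMIs), 3.36-fold higher (2.74 to 4.11). It was seen in 52.6% of vehicle and 80.5% of ethanol spots, or 16.5% and 44.2% after thinning. Fos had 15 and 65 UMIs, a ratio of 3.32 (1.89 to 5.85), the zinc finger factor Egr1 stood at 115 and 271 CPM, 2.36-fold higher (2.07 to 2.71), and the nuclear receptor Nr4a1 at 56.5 and 132 CPM, 2.33-fold higher. Of 15 measured immediate early genes 5 were called higher (Arc, Fos, Egr1, Egr4 and Nr4a1) and all 15 had ratios above 1, with a median log2 ratio of 0.48 against 0.00 for all genes. Bdnf, the neurotrophin that is itself activity-regulated, had a ratio of 1.07. In CA1, where 23 of 3198 genes were called higher (0.719%) and 8 lower (0.25%), Arc stood at 67.2 and 223 CPM, 3.32-fold higher (2.7 to 4.12), and in the neuropil at 21.8 and 45.3 CPM, 2.07-fold higher (1.53 to 2.83). Elsewhere Arc was not called, and over the neocortex it stood at 106 and 132 CPM. Fos was also called higher outside the hippocampus, in white matter and the relay thalamus. Its log2 ratios over the settings were 1.24 to 1.54 and 1.03 to 1.32. In white matter Dusp1 and Klf4 of the same list were called lower, Klf4 under 2-fold in 6 alternative settings. At 3 to 4 months Arc in the cell layers stood at 95.3 CPM under vehicle and 53 CPM under ethanol, and Egr1 at 114 and 183 CPM.

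Of the interneuron peptides in the same layers, Vip came from few spots. Vip stood at 58.1 and 11.7 CPM (145 and 34 UMIs), 4.98-fold lower (3.43 to 7.25), and 71% of its vehicle UMIs lay in 10 spots. Sst, somatostatin, stood at 439 and 214 CPM, 2.06-fold lower (1.87 to 2.27), Cort, cortistatin, at 58.8 and 18.6 CPM, and Tac1, the substance P precursor, at 28.5 and 6.85 CPM. Of 10 measured interneuron genes 4 were called lower and the median was -0.68. The Sst call was lost when only the older libraries were clustered, at a log2 ratio of -0.68, and after thinning Sst was seen in 53.6% of vehicle and 49.6% of ethanol spots, so the gap lay in UMIs per spot. The synthesis enzymes of GABA, Gad1 (205 and 159 CPM) and Gad2 (70.9 and 46 CPM), and the peptide Npy (157 and 137 CPM) did not pass. Hsd11b1, which regenerates active glucocorticoid, was 2.02-fold lower and under 2-fold in 5 alternative settings. Relay thalamus markers, 10 of 11 detected in the vehicle and 11 of 11 in the ethanol library, summed to 213 and 351 CPM in these layers, and Slc17a6, the vesicular glutamate transporter of thalamus, was called higher at 8.77 and 25.8 CPM. The part of these markers in the hippocampal differences was not tested.

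The hippocampal neuropil (174 and 160 spots) had 17 of 3966 genes called higher and 17 lower (0.429% each), a split of 20 and 11 when mitochondrial, carry-over and haemoglobin genes were left out of the totals. C4b stood at 29.6 and 73.1 CPM, 2.46-fold higher (1.91 to 3.19), Ighm at 13.7 and 54 CPM and the immediate early gene Egr4 at 15.3 and 34.5 CPM. Klf2 stood at 61.8 and 23 CPM, 2.68-fold lower (1.99 to 3.66). The interleukin gene Il18 stood at 39.3 and 18.3 CPM, 2.15-fold lower, and Ndnf, which marks neurogliaform interneurons, at 20.9 and 7.15 CPM, 2.93-fold lower. Shank3, a postsynaptic scaffold, was called higher in 6 of the 13 strata where it was measured, among them the neuropil at 24.7 and 50.4 CPM, although that ratio of 2.05 was under 2-fold in 2 alternative settings. Relay thalamus markers summed to 424 and 745 CPM in the neuropil spots and choroid plexus markers to 1043 and 199 CPM, all of both lists detected in both libraries, and their part in these values was not tested.

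In the neocortex (569 and 528 spots in 5 strata) 25 of 6019 genes were called higher (0.415%) and 21 lower (0.349%), a split of 36 and 17 without mitochondrial, carry-over and haemoglobin genes in the totals and 36 and 15 with median-of-ratios scaling. C4b was low in cortex and still separated the libraries, at 7.34 and 19.2 CPM, 2.62-fold higher (2.03 to 3.37). Slc7a5, the large neutral amino acid transporter, stood at 7.09 and 22.1 CPM, 3.12-fold higher (2.45 to 3.97), and was also called in the hippocampal cell layers (14 and 51 UMIs). The cortistatin gene Cort stood at 92.6 and 41.8 CPM (1117 and 576 UMIs), 2.21-fold lower (2 to 2.45), while Sst (676 and 484 CPM), Vip (68.5 and 55.4 CPM) and Npy (309 and 201 CPM) did not pass. Cort at 3 to 4 months stood at 73.7 and 82.7 CPM. Nts, neurotensin, stood at 18.2 and 1.93 CPM, 9.4-fold lower (6.18 to 14.3) in 52 and 21 spots, and its log2 ratio of -3.23 was -0.24 when the clustering was finer. Of 20 measured immediate early genes none was called in cortex, and the median was 0.14 against -0.09 for all genes. Choroid plexus markers, 8 of 8 detected in both, summed to 1939 and 458 CPM in these spots, and their part was not tested.

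The relay thalamus stratum (Prkcd-Tcf7l2, 208 and 402 spots) had 66 of 4651 genes called higher (1.42%) and 22 lower (0.473%). Among the genes higher were C4b, Serpina3n and Gfap, and among those lower the myelin genes Mog and Pllp. C4b had 18 and 194 UMIs, or 7.35 and 41 CPM, 5.58-fold higher (3.44 to 9.62), in 6.25% of vehicle and 33.8% of ethanol spots and in 4.08% and 17.4% after thinning. Serpina3n stood at 6.12 and 28.5 CPM, 4.66-fold higher (2.73 to 8.56). Gfap stood at 25.7 and 52 CPM, 2.02-fold higher (1.53 to 2.71), but was under 2-fold in 3 alternative settings. The interferon-inducible genes Ifi27l2a (4.08 and 20.5 CPM) and Lgals3bp (4.9 and 26.6 CPM) and the class I gene H2-D1 (29 and 61.7 CPM, a log2 ratio of 0.90 with finer clustering) were called higher, and 3 of 7 reactive astrocyte genes were, with a median of 0.69 against -0.03 for all genes. In white matter Ifi27l2a went the other way, at 64.5 and 29.2 CPM.

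Myelin genes of the relay thalamus all had ratios below 1 (13 of 13), with 2 called lower, a median log2 ratio of -0.63 and a summed level of 13881 and 9691 CPM. Mog, the outermost myelin glycoprotein, stood at 207 and 92.2 CPM, 2.25-fold lower (1.98 to 2.56), and was seen in 77.4% of vehicle and 53.7% of ethanol spots, or 53.1% and 32.1% after thinning. Pllp, plasmolipin, stood at 151 and 71.7 CPM (a log2 ratio of -0.92 with core spots only), and Fa2h, which makes the hydroxylated lipids of myelin, at 111 and 46.1 CPM. Mbp (5471 and 3943 CPM) and Cnp (605 and 368 CPM) did not pass. White matter markers, which include myelin genes (11 of 11 detected in both), summed to 1972 and 1204 CPM, relay thalamus markers to 4481 and 3964 CPM, and reticular thalamus markers, 5 of 6 and 6 of 6 detected, to 122 and 231 CPM. Plane and gavage cannot be told apart in these values.

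The hypothalamus (350 and 385 spots in 2 strata) had 27 of 5387 genes called higher (0.501%) and 15 lower (0.278%), a split of 32 and 10 with median-of-ratios scaling. Avp, vasopressin, had 18 and 9251 UMIs, and 91.8% of the ethanol UMIs lay in 10 spots, with 1784 in 1 of them. The Avp levels at 3 to 4 months were 4.24 CPM under vehicle and 846 CPM under ethanol. C4b differed between the hypothalamic strata. It had 51 and 375 UMIs in the stratum led by Hcrt and Pmch, a ratio of 6.06 (4.51 to 8.29). That stratum had 30 genes higher (0.681%) and 13 lower (0.295%) of 4405. In the stratum led by Baiap3 and Hap1, C4b had 69 and 104 UMIs, a ratio of 1.44 (1.05 to 1.98). Ighm stood at 5.59 and 38.1 CPM, 6.81-fold higher (4.58 to 10.1), Lyz2 at 8.89 and 30.3 CPM, and Cd74, the class II invariant chain, had 15 and 59 UMIs, a ratio of 3.06. Npy stood at 201 and 70.2 CPM, 2.86-fold lower (2.57 to 3.19), and 51.8% of its vehicle UMIs lay in 10 spots against 26.3% in the ethanol library. Hypothalamic markers summed to 4912 and 6802 CPM and white matter markers to 657 and 847 CPM in these spots. Markers of piriform cortex and cortical amygdala summed to 297 and 471 CPM. The part of these marker differences in the hypothalamic values was not tested.

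Genes of ethanol and aldehyde metabolism differed little over the section. None of 11 measured genes was called over the section and the median log2 ratio was -0.15, against -0.07 for all genes. Aldh1a1 stood at 83.9 and 74.4 CPM, mitochondrial Aldh2 at 89 and 81 CPM, and Adh5, the class III alcohol dehydrogenase, at 69.7 and 60.8 CPM. In white matter 0 of 9 were called, with a median of -0.39 against -0.09 for all genes there, and the catalase gene Cat stood at 110 and 70.8 CPM. In the choroid plexus stratum 1 of 7 was called higher (Aldh1a1) and 1 lower (Acss1). Of all genes in that stratum 2.16% were called higher and 1.55% lower. No antioxidant (0 of 21) or heat shock gene (0 of 18) was called over the section either. The proneurotrophin receptor Ngfr had 44 and 83 UMIs and was called higher (a log2 ratio of 0.88 with core spots only), and Mapt, the tau gene, stood at 126 and 201 CPM, 1.59-fold.

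The carry-over transcripts Lars2 and Gm42418 and the mitochondrial transcript mt-Atp8 were called higher in most strata. Lars2 was called higher in 18 of 21 strata, Gm42418 in 17 and mt-Atp8 in 14, with section ratios of 3.12, 2.97 and 2.19. All 13 measured mitochondrially encoded genes had ratios above 1, with a median log2 ratio of 0.32, while the 24 nuclear oxidative phosphorylation genes had a median of -0.18. Such transcripts are known to vary with RNA quality and tissue permeabilisation, and the part of this difference in the other results was not tested.

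Recurrence over the strata separated broad from local differences. Of all genes, 293 were called higher in at least 1 of the 21 strata and 468 lower, but only 5 higher and 1 lower in at least 10. Over all 70048 pairs of a measured gene and a stratum, 493 were called higher (0.704%) and 574 lower (0.819%). The unnamed Vamp1-Syt2 stratum, with 265 vehicle and 49 ethanol spots, gave 39 of the higher and 173 of the lower calls, and without it 454 were higher (0.686%) and 401 lower (0.606%) of 66184, which turns the balance. Those 5 were Lars2, Gm42418, mt-Atp8, Ighm and C4b, and the 1 was Klf2. C4b was called in 10 of 14 strata, with ratios from 0.999 in the meninges to 6.06 in the Hcrt-Pmch hypothalamus, and did not pass in CA1 (1.63), the Baiap3-Hap1 hypothalamus (1.44) or the striatum and central amygdala (1.51). Myl9 was called lower in 7 of 11 strata and Cd52 higher in 5 of 6. Lrrc17, a leucine-rich repeat gene, was called higher in 9 of 21 strata.

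The 3 to 4 month pair shares no library with the older one, although in both pairs the plane of cut follows the gavage label. More of the older genes recurred in the younger pair in the higher than in the lower direction. The younger higher lists were also longer, 83 against 16 genes in white matter and 94 against 23 over the section. Of the older white matter genes, 32 of the 42 higher and 35 of the 38 lower were measured in the younger pair. Of the 42 genes called higher in older white matter 23 were called higher in younger white matter (54.8% of the older list and 27.7% of the younger list of 83, itself 1.99% of 4178 genes). Of the 38 called lower 3 were shared, Myoc, Fabp7 and Gpr17 (7.89% of the older and 18.8% of the younger list). Over the section 19 of 44 higher genes (43.2% of the older and 20.2% of the younger list) and 4 of 40 lower genes (10% and 17.4%) were shared, the latter Myoc, Wfdc2, Defb11 and C1ql4. In the hippocampal cell layers 5 higher genes were shared, 3 of them Ighm, Lars2 and Gm42418, and no lower gene. C4b at 3 to 4 months stood at 23.5 and 141 CPM over the section, Ighm at 18.2 and 35.5 CPM, and Igkc at 0.22 and 1.68 CPM.

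The younger lists were of the following sizes. Over the section 94 genes were higher (1.25%) and 23 lower (0.306%) of 7507, and in white matter 16 were lower (0.383%). In the younger cell layers 8 genes were higher (0.198%) and 2 lower (0.0495%), and in the neuropil 16 were higher (0.457%), of which Ighm and C4b were shared, and 1 lower (0.0286%). In the neocortex 27 were higher (0.424%) and 9 lower (0.141%), with C4b, Pcdhb6 and Lrrc10b shared among the higher and Nts among the lower. In the relay thalamus 84 were higher (1.63%) and 14 lower (0.271%), and 17 of the older higher list (25.8%, or 20.2% of the younger) recurred, among them C4b, Serpina3n, Ighm and Cd68. In the hypothalamus 30 were higher (0.546%) and 26 lower (0.473%), with 8 higher and 3 lower genes shared, the latter Npy, Ucn3 and Grp. Whether any ratio differed between the ages was not tested.

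**Figure D5:**
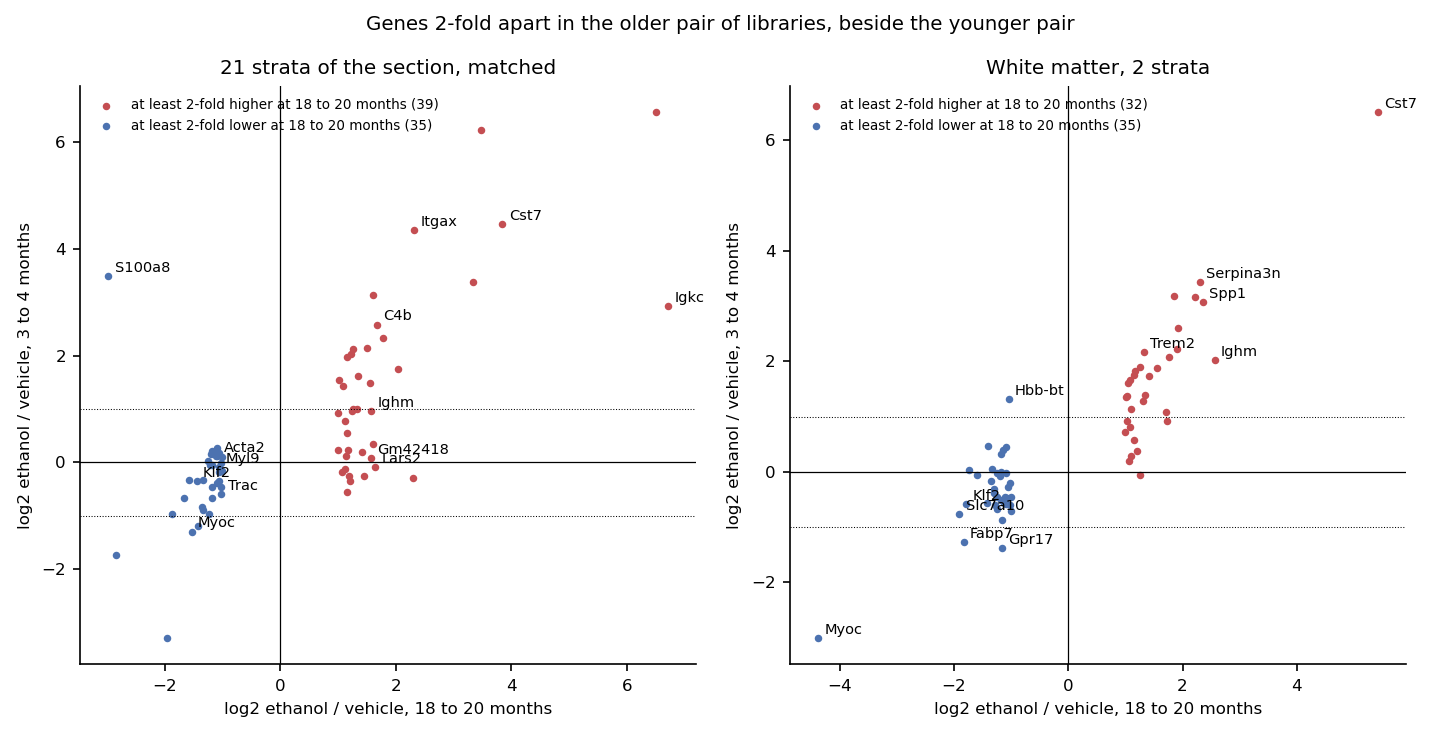
Log2 ratio of ethanol over vehicle at 18 to 20 months (x) and at 3 to 4 months (y) for genes called at 18 to 20 months that had at least 50 UMIs in the younger pair, over the matched section (39 higher and 35 lower) and in white matter (32 higher and 35 lower). Genes on both axes above 1 or below -1 were past 2-fold in both pairs, such as C4b on the higher and Myoc on the lower side, while Klf2 was under 2-fold at 3 to 4 months; dotted lines mark 2-fold at 3 to 4 months.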

How the data were processed

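The deposited matrix holds raw UMI counts per gene and spot for all 4 libraries; per the file headers it was written by spaceranger 1.3.1, while Space Ranger 2.0.0 and mm10 are named in the submitters' processing notes. Spot positions and images were not used here. Spots with at least 500 UMIs (2703 vehicle, 2642 ethanol; 81 and 6 left out) were assigned to libraries by barcode suffix. Spots of all 4 libraries were clustered (1649 genes, 30 principal components, 15 neighbours, Leiden resolution 1) on genes kept apart from the 16458 that could be compared, and strata needed 15 spots in each library. Doublets were not called, as spots are not cells. UMIs were summed per stratum and library, scaled to a total of 1000000 (CPM) and averaged with the mean share of spots as weight. The comparison was tried on simulated counts with planted changes larger than 2-fold. These counts held counting error only, so the trial does not bear on spread between animals, sections or planes. A level against 0 UMIs is bounded at 3 UMIs. With 1 library a group no test across animals exists, and 95% intervals cover counting error only, since UMIs of 1 section share an animal.

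Genes named are the 8 highest and 8 lowest called per group of strata, the 15 called in most strata, up to 5 called members and the 2 deepest of each of 44 lists, and a fixed set of glial, immunoglobulin, activity and ethanol-related genes; single-stratum values in the meninges, choroid plexus and hypothalamus and others outside this rule were chosen after their values were seen. Members and lists were chosen with earlier results of these data known, and the rule for naming strata and the 15-spot minimum were set after the spot counts and leading genes of the clusters, and a first result with 20, had been seen. Alternatives changed totals, scaling, UMI minimums, clustering, stratum edges and weights. Promoters were matched by symbol to RefSeq (GRCm38.p6). Software was Python 3.11.15, numpy 2.4.6, pandas 2.3.3, scipy 1.17.1, scikit-learn 1.9.0, igraph 0.11.9, leidenalg 0.10.2 and matplotlib 3.10.9.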

Additional observations from a re-analysis of the deposited data

Results flagged for a closer look

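In 3 results the ratio of ethanol over vehicle was past 2-fold in opposite directions at the 2 ages, and these differences were not tested. The neutrophil alarmin S100a8 over the matched section had a log2 ratio of -2.98 at 18 to 20 months (54 vehicle and 7 ethanol UMIs) and 3.49 at 3 to 4 months (6 and 66 UMIs). The beta globin gene Hbb-bt in white matter had a log2 ratio of -1.04 at 18 to 20 months (596 and 358 UMIs) and 1.32 at 3 to 4 months (376 and 1106 UMIs), and the older ratio was under 2-fold in 3 of its alternative settings, to -0.83. The carry-over transcript Gm42418 in the neocortex had a log2 ratio of 2.30 at 18 to 20 months (7829 and 40475 UMIs) and -1.05 at 3 to 4 months (39255 and 20110 UMIs).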

How the results depend on the processing

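The counts of called genes depended most on the UMI minimum per gene. With at least 100 and at least 20 UMIs in place of 50, genes called higher and lower were 24 and 16, and 90 and 129, over the section, 26 and 16, and 125 and 115, in white matter, 13 and 4, and 72 and 45, in the hippocampal cell layers, 10 and 3, and 43 and 78, in the neuropil, 15 and 5, and 58 and 78, in the neocortex, 37 and 14, and 155 and 48, in the thalamus, and 15 and 4, and 73 and 59, in the hypothalamus. Genes called lower were 24 in white matter with at least 2000 UMIs per spot, 6 in the cell layers with core spots only, 11 in the neuropil without mitochondrial, carry-over and haemoglobin genes in the totals, and 12 in the neocortex at Leiden resolution 2. In the hypothalamus 44 were higher and 33 lower at resolution 0.5, and 41 and 32 at resolution 2. The cause of these shifts was not tested beyond the number of genes that each minimum admits. A minimum of 20 spots per stratum, chosen after seeing the data, gave 43 higher and 43 lower over the section, of which 42 and 40 were shared. Without the unnamed Vamp1-Syt2 stratum, likewise chosen after seeing the data, 45 were higher and 37 lower, of which 39 and 28 were shared. Scaling moved the split by under 10 points over the section (54 higher and 34 lower without mitochondrial, carry-over and haemoglobin genes), in the cell layers (31 and 8) and in the thalamus (80 and 15). The scaling alternatives moved the median of all genes by under 0.1 on the log2 scale in each group of strata. Over 2090 alternatives for 223 gene values 0 changed sign, and 64 gene values were under 2-fold in at least 1. Of 2576 alternatives for 285 list medians 424 moved by more than their spread. No stratum bore the name of the hippocampal cell layers at resolution 0.5, nor of the neuropil at 0.5, at 2 and with only the older libraries clustered, so those values were not run. No paired analysis was possible because there was 1 library a group. Depth limits genes under 50 UMIs, which have no value here, and the dentate and choroid plexus strata, which hold few spots.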

Other observations

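Several gene groups not described above were set beside the same median of all genes over the matched section, a log2 ratio of -0.07. All 6 measured class II antigen presentation genes had ratios above 1, with a median of 0.47 and none called. The 4 measured border macrophage genes all had ratios below 1, with a median of -0.59 and none called. Interneuron genes had ratios above 1 in 1 of 13, with a median of -0.25 and none called, and unfolded protein response genes in 12 of 17, with a median of 0.14 and none called.

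Among GABA-A receptor subunits 1 of 12 was called, Gabrb2 at 1.42 and 3.07 CPM, with a median of 0.02 for the list. Of 18 glucocorticoid response genes 1 was called higher, the zinc finger gene Zbtb16 with 32 and 68 UMIs and a ratio of 2.22 (1.37 to 3.62), against a list median of -0.14. Both calls were under 2-fold in 2 alternative settings. At 3 to 4 months Zbtb16 stood at 2.84 CPM under vehicle and 1.93 CPM under ethanol.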
